A study of Mus musculus with 2 samples.

Results

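The H2 genes are the mouse major histocompatibility complex (MHC) genes of chromosome 17. They were taken as the RefSeq genes of the GRCm38 assembly whose symbol begins with H2 and a letter and that lie between about 33.9 and 37.6 Mb, which gave 46 of 49997 annotated genes. Of these, 33 were class I genes, 12 were class II genes and 1, H2-Ke6, belonged to neither class. Among them 8 class I genes and 3 class II genes are not annotated as protein-coding. The deposited table divides the genome into windows of 50 kb, and 42 of the 46 genes overlapped a window of the table. They occupied 26 of its 43941 windows, 20 with class I genes and 6 with class II genes. The other 42 windows between 33.5 and 38.0 Mb served as context. The class I genes H2-M10.1, H2-M10.2, H2-M10.4 and H2-M3 had no window in the table, so their contacts are not analysed here, though their promoter sequences are among those searched.

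Promoter Capture Hi-C was made from 2 samples of the female hybrid embryonic stem cell line F121-6, whose 2 genomes come from the 129 and Cas mouse strains (cross 129 / cas). The method ligates DNA ends that lie near each other in fixed nuclei and then enriches for fragments at 22225 promoters. Both samples were of 1 group, grew in medium with fetal calf serum and LIF over MEFs (mouse embryonic fibroblast feeders) that mitomycin C had inactivated, and the labels name no treatment or genetic change. The line is a single hybrid line, and the labels do not say whether feeder cells were removed before fixation. Each column of the table pools both samples, so every window had 1 interaction count and 1 interaction distance per allele and no replicate error could be formed. Contact counts do not measure expression, and the cell type could not be checked against marker genes.

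Class I molecules present peptides made inside the cell to CD8 T cells, and class II molecules present peptides from taken-up material to CD4 T cells. H2-K1 and H2-D1 encode the classical class I heavy chains. The protein-coding genes of the Q, T and M groups encode nonclassical class I chains of more restricted or specialised use. H2-Aa and H2-Ab1 encode the alpha and beta chains of the class II molecule I-A, and H2-Eb1 the beta chain of I-E. H2-DMa, H2-DMb1 and H2-DMb2 encode chains of the peptide exchange factor of class II molecules, and H2-Oa and H2-Ob encode its modulator. Embryonic stem cells are known for low class I and little or no class II on their surface.

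Promoter sequences of 32 H2 genes were found in the RefSeq table of GRCm38.p6, for 23 class I genes, 8 class II genes and H2-Ke6. The 250 bases before the transcript start that this table gives are shown for the classical genes H2-K1 and H2-D1 and for H2-Q6 and H2-Q7, the pair of H2 promoters most alike in percent identity. For 7 of the 32 genes that start lies inside the annotated span of the gene, by 272 bases for H2-K1 and 15 bases for H2-Q7 among those shown. Capitals mark GGGATTCCC, a string of the NF-kappaB site type, and TTTCNNTTC, a string of the interferon response element type.
H2-K1 promoter, chr17:34000348-34000597, minus strand: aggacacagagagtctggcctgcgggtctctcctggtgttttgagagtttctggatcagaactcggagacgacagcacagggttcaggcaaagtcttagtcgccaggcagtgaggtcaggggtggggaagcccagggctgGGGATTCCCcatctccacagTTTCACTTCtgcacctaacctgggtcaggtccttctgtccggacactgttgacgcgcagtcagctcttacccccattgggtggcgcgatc
H2-D1 promoter, chr17:35262844-35263093, plus strand: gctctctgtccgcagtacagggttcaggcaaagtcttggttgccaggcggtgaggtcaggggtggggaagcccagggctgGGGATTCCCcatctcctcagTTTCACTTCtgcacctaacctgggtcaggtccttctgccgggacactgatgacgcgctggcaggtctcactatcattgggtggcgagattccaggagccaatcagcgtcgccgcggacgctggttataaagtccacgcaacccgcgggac
H2-Q6 promoter, chr17:35424600-35424849, plus strand: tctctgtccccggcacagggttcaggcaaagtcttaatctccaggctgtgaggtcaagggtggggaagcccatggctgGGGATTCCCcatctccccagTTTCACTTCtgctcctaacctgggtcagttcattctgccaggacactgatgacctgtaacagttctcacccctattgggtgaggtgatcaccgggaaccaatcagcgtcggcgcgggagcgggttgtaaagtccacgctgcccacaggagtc
H2-Q7 promoter, chr17:35438905-35439154, plus strand: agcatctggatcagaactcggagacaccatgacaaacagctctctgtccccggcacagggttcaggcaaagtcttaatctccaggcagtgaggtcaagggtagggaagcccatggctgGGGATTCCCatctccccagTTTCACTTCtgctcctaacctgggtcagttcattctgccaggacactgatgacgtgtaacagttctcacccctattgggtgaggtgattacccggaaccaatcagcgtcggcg
The string GGGATTCCC, searched on both strands, lay in 4 of the 23 class I promoters, which were those shown. It lay in none of the 8 class II promoters and in 0.301% of all 32851 promoters. TTTCNNTTC lay in 8 of the 23 class I promoters, in none of the 8 class II promoters and in 6.31% of all promoters. Those 8 were the promoters of H2-K1, H2-D1, H2-Q4, H2-Q6, H2-Q7, H2-Q10, H2-M2 and H2-M3. In the best local alignment, H2-Q6 and H2-Q7 were identical at 205 of 211 positions (97.2%), and H2-K1 and H2-D1 at 161 of 177 positions (91.0%). Outside the Q group, H2-T23 and H2-T-ps matched at 225 of 239 positions, H2-M10.3 and H2-M10.5 at 229 of 244, and H2-M9 and H2-M1 at 214 of 230. A match of letters is a description of the sequence and shows no binding. GGGATTCCC and TTTCNNTTC were chosen after the promoters had been read, so their shares beside those of all promoters are no test.

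For class II, the promoters of H2-DMb1, H2-Eb1 and H2-Aa are shown because they stand for the peptide exchange factor, I-E and I-A. Capitals mark AACTGATG, a string of the X box that RFX factors bind, and CCAAT on either strand, the string bound by NF-Y.
H2-DMb1 promoter, chr17:34152941-34153190, plus strand: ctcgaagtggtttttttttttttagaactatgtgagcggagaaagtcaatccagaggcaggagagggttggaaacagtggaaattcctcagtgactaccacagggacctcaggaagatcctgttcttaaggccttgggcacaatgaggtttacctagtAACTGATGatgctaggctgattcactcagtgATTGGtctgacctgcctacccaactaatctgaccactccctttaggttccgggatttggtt
H2-Eb1 promoter, chr17:34305617-34305866, plus strand: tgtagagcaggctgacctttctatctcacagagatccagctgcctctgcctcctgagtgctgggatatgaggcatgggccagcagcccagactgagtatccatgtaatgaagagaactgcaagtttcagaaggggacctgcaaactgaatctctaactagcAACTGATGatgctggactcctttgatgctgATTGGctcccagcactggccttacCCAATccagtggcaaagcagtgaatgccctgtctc
H2-Aa promoter, chr17:34287824-34288073, minus strand: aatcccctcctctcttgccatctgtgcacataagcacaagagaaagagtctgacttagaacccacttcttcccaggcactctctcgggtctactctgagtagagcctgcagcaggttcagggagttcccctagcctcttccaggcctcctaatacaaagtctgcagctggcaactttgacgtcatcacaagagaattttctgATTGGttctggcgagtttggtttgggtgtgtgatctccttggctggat
AACTGATG lay in 3 of the 8 class II promoters (H2-DMb1, H2-Eb1 and H2-Eb2), in 1 of the 23 class I promoters (H2-M10.4) and in 0.676% of all promoters. This exact string was absent from the promoter of H2-Aa, and other spellings of the X box were not searched. The letters of all strings except CCAAT were chosen after the promoters had been read. CCAAT lay in 7 of the 8 class II promoters, in 20 of the 23 class I promoters and in 33.8% of all promoters. The class II promoters were less alike than the closest class I pairs: H2-DMb1 and H2-DMb2 matched at 175 of 221 positions (79.2%) and H2-Eb1 and H2-Eb2 at 117 of 168 (69.6%).

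Interactions summed to 50842396 on 129 and 37470557 on Cas over the whole table, and 57.6% of the interactions of the autosomes lay on 129. Each window with a summed count of at least 10 was therefore tested against this autosomal share, by a two-sided beta-binomial test with Benjamini-Hochberg adjustment over all 43762 windows tested. The spread between windows beyond counting error had an SD of 6.35 points of the 129 share. Ratios are given as log2 of 129 over Cas after a pseudocount of 1, minus the median of the autosomes, so that 0 is the middle of all windows. Intervals are exact Clopper-Pearson 95% intervals and cover counting error only. Genes in the same window share its value.

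None of the 25 H2 windows with enough interactions was called at an adjusted p under 0.05 in the beta-binomial test, against 0.944% of all windows (413). At an unadjusted p under 0.05 there was 1 H2 window, that of H2-Q10, while 5.51% of all windows lay under this level. An exact binomial test, which allows for counting error alone, called 5 H2 windows towards 129 and 4 towards Cas, and it called 51.4% of all windows. The 26 windows held 32246 interactions on 129 and 22613 on Cas, which put 58.8% (58.4% to 59.2%) on 129. Their median centred log2 ratio was -0.05 with a range of -0.86 to 0.93 and an SD of 0.38, and over all windows the SD was 0.45. The ratio was above 0 in 11 and below 0 in 14 of the 25 windows, against 50% of all windows above 0. A 129 share of at least 79.4%, or of at most 33.7%, would have been needed for a call at the median class I count of 481. At the median class II count of 4331 the bounds were 78.2% and 35.1%, so smaller allelic shifts could not be called at these counts.

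**Figure D1:**
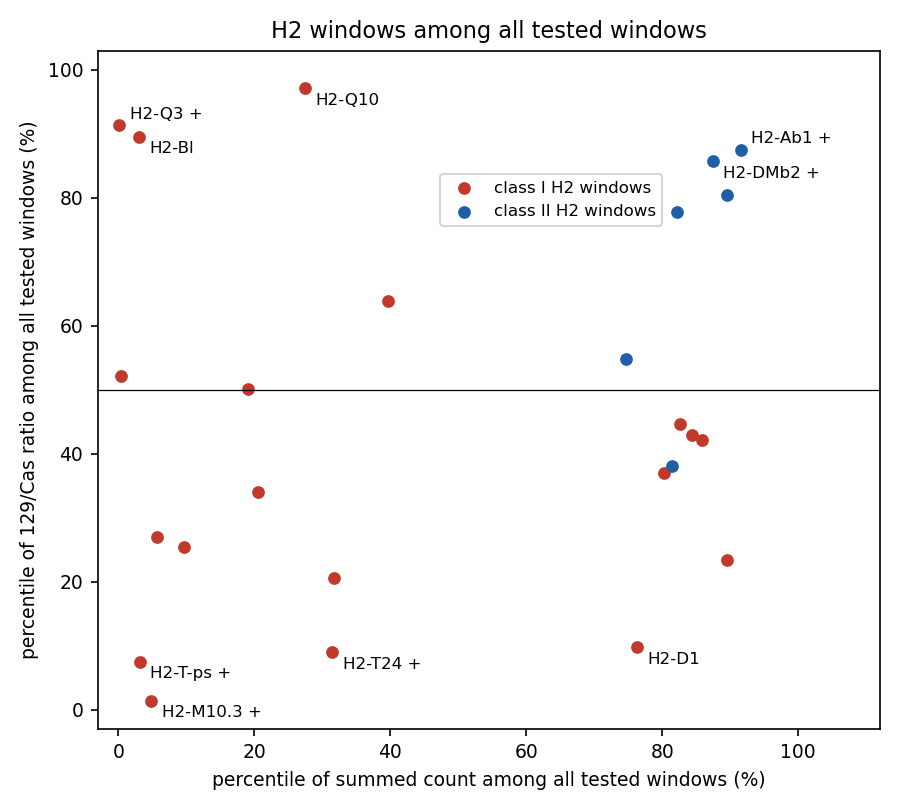
Each point is an H2 window with a summed count of at least 10, placed by the percentile of its summed count (x axis, %) and of its 129 over Cas ratio (y axis, %) among all tested windows; colours give the class and the line marks the middle ratio. Class II windows lie at count percentiles of 74.7 and above, whereas class I windows span from 0.141 to 89.6.

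The 6 class II windows had more contacts than most windows of the genome, as their surroundings did, and 5 of them lay on the 129 side. They held 16228 interactions on 129 and 9911 on Cas, which put 62.1% (61.5% to 62.7%) on 129. The summed count per window was 2685 to 5800, with a median of 4331, against medians of 4290 in the 12 windows of the class III stretch before H2-D1, 3131.5 in the context windows and 974 over all windows. The ratio was above 0 in 5 of 6 windows, with a median of 0.28 and a range of -0.09 to 0.44. None was called in the beta-binomial test, where each had an adjusted p of 1, and 4 were called towards 129 by the exact binomial test, against 27.1% of all windows. Of the 42 context windows, whose counts were also high, the exact binomial test called 15 towards 129 and 9 towards Cas.

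The window of H2-Ab1 and H2-Aa, both chains of I-A, had 3766 interactions on 129 and 2034 on Cas. This was the largest summed count of all H2 windows and the highest ratio among class II windows, with a 129 share of 64.9% (63.7% to 66.2%) and a ratio at the 87.6th percentile. The window with the body of H2-DMb1 and the end of H2-DMb2 had 3095 interactions on 129 and 1720 on Cas, which put 64.3% (62.9% to 65.6%) on 129. It also holds Tap1, a subunit of the peptide transporter, and the immunoproteasome subunits Psmb8 and Psmb9, whose values cannot be told apart from that of H2-DMb1.

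The neighbouring window, with H2-DMa and the start of H2-DMb2, had 3307 interactions on 129 and 1959 on Cas, which put 62.8% (61.5% to 64.1%) on 129. It includes Brd2, a gene for a chromatin reader protein. The window of H2-Eb1, H2-Eb2 and the pseudogene H2-Ea had 2392 interactions on 129 and 1455 on Cas, which put 62.2% (60.6% to 63.7%) on 129. Both modulator genes lay nearer the autosomal share. The window of H2-Ob, shared with Tap2, had 1569 interactions on 129 and 1116 on Cas, which put 58.4% (56.5% to 60.3%) on 129. The window of H2-Oa and the pseudogenes H2-Pa and H2-Pb had 2099 interactions on 129 and 1627 on Cas, which put 56.3% (54.7% to 57.9%) on 129, and was the class II window below 0. The intervals of both modulator windows overlapped each other and held the autosomal share, while those of the other 4 windows lay above it.

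The class I windows were uneven in count, and their ratios lay on both sides of 0. They held 16018 interactions on 129 and 12702 on Cas, which put 55.8% (55.2% to 56.3%) on 129. Their summed counts ran from 2 to 5287 with a median of 481. The ratio was above 0 in 6 and below 0 in 13 of 19 windows, with a median of -0.10 and an SD of 0.40, and 57.6% of protein-coding genes had a start window below 0. The exact binomial test called 1 of the 19 windows towards 129, against 27.1% of all windows. It called 4 of the 19 towards Cas, against 24.3% of all windows. The difference between class I and class II was not tested, and the window shares of the classes overlapped.

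Among the classical genes, H2-D1 was the further towards Cas. Its window had 1481 interactions on 129 and 1437 on Cas, which put 50.8% (48.9% to 52.6%) on 129, a centred log2 ratio of -0.41 and a ratio at the 9.75th percentile. The beta-binomial adjusted p was 1 and the exact binomial adjusted p, also by Benjamini-Hochberg, was 1.84e-12. The window with the start of H2-K1, shared with H2-Ke6 and the starts of Ring1, Slc39a7, Rxrb and Col11a2, had 2563 interactions on 129 and 1946 on Cas, which put 56.8% (55.4% to 58.3%) on 129. The window before it, with the end of H2-K1, the pseudogene H2-K2 and the starts of B3galt4, Rps18 and Vps52, had 2869 interactions on 129 and 2418 on Cas, which put 54.3% (52.9% to 55.6%) on 129. Neither value can be credited to H2-K1 alone. The interval of H2-D1 overlapped that of neither H2-K1 window, which concerns counting error alone.

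Among the Q windows, that of H2-Q10 lay furthest towards 129 at a moderate count, and 2 others held almost no interactions. The window of H2-Q10, which encodes a secreted class I chain made in liver, had 385 interactions on 129 and 147 on Cas. Its 129 share of 72.4% (68.4% to 76.1%) and its ratio of 0.93 on the centred log2 scale, at the 97.1st percentile, were the highest among the H2 windows. The beta-binomial p was 0.0231 before adjustment and 0.645 after it. The window of H2-Q1 and H2-Q2 had 442 interactions on 129 and 299 on Cas, which put 59.6% (56.0% to 63.2%) on 129. The 2 windows between them were nearly empty and are named here after their values were seen. The window of H2-Q4 and the pseudogenes H2-Q3 and H2-Q5 had 11 interactions on 129 and 5 on Cas. The window of H2-Q6 and H2-Q7, whose promoters are nearly identical in the reference assembly, had 1 on each allele and was not tested. Whether reads from near-identical copies were lost in the authors' mapping was not tested, and the counts of genes with such copies are uncertain.

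**Figure D2:**
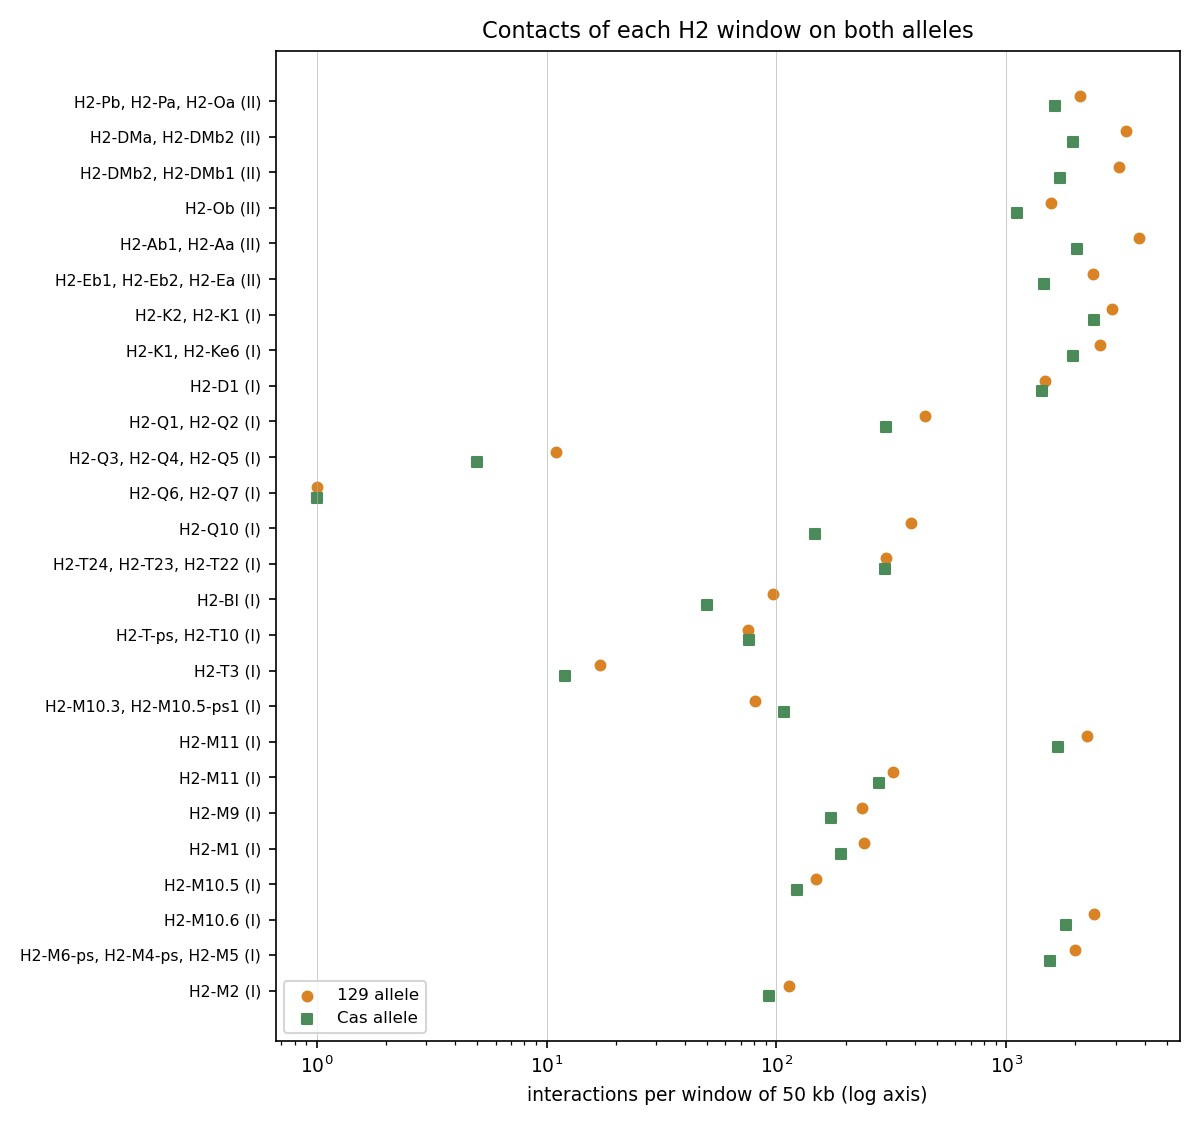
For each H2 window, named by its genes, the interaction count per 50 kb on 129 (circles) and on Cas (squares) is drawn on a log axis. The windows of the Q, T and M genes reach from 1 interaction per allele at H2-Q6 and H2-Q7 to 2410 on 129 and 1823 on Cas at H2-M10.6. That last window also holds the start of Trim26. The class II windows have at least 1569 on 129 and 1116 on Cas.

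The 4 windows of the T group, which includes H2-T23, the gene of the Qa-1 chain seen by natural killer cell receptors, were sparse. Together they had 490 interactions on 129 and 434 on Cas, which put 53.0% (49.8% to 56.3%) on 129. The window of H2-T22, H2-T23 and H2-T24 had 301 interactions on 129 and 296 on Cas, which put 50.4% (46.3% to 54.5%) on 129. The window of H2-T-ps and the pseudogene H2-T10 had 75 interactions on 129 and 76 on Cas. That of the pseudogene H2-Bl had 97 on 129 and 50 on Cas. The shares of these last 2 windows were 49.7% (41.4% to 57.9%) and 66.0% (57.7% to 73.6%), and their intervals overlapped. The window of H2-T3 had 17 interactions on 129 and 12 on Cas.

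Of the 9 windows of the M group, 8 lay below 0 and 1, that of H2-M9 with a ratio of 0.00081, lay at the middle of all windows. Together they had 7776 interactions on 129 and 6015 on Cas, which put 56.4% (55.6% to 57.2%) on 129. The window of H2-M10.3 and the pseudogene H2-M10.5-ps1 was the H2 window furthest towards Cas, with 81 interactions on 129 and 108 on Cas. Its 129 share was 42.9% (35.7% to 50.2%) and its centred log2 ratio was -0.86, at the 1.40th percentile, with a beta-binomial p of 0.0508 before and 0.910 after Benjamini-Hochberg adjustment. H2-M10 genes are expressed in sensory neurons of the vomeronasal organ. The window of H2-M10.5 had 148 interactions on 129 and 123 on Cas, which put 54.6% (48.5% to 60.6%) on 129. H2-M11 spans 2 windows that differed in depth, with 2243 interactions on 129 and 1682 on Cas at its start against 323 on 129 and 278 on Cas at its end. Among the remaining M windows the 129 share ran from 54.9% at H2-M2 to 57.8% at H2-M9. Starts of other named coding genes lay in the windows of H2-M10.6 (Trim26), H2-M5 (Ppp1r11, Znrd1 and Znrd1as) and H2-M2 (Olfr109 and Olfr110). The values of those windows cannot be credited to the H2 genes alone.

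The 5 class I windows that also held the start of a named protein-coding gene outside the H2 genes had summed counts of 206 to 5287 with a median of 4233. The other 15 had summed counts of 2 to 3925 with a median of 408, and 4 of them, the T windows, held, apart from H2 genes, only starts of coding genes known by model numbers. The part of the other promoters in the H2 values was not tested.

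Interaction distances, deposited once per allele and window and taken to be in base pairs, were compared where each allele had at least 10 interactions. The labels do not say whether a distance is a mean or a median. The 6 class II windows had short distances, with medians of 62.2 kb on 129 and 67 kb on Cas, while all windows together had medians of 348 kb (129) and 347.5 kb (Cas). Distances in the surrounding windows were short too, with medians of 118 kb on 129 and 123 kb on Cas in the context windows and 99.8 kb on 129 and 156 kb on Cas in the class III stretch. None of the class II windows differed 2-fold between alleles. The 18 class I windows had medians of 317 kb on 129 and 325 kb on Cas. In the T windows the medians were 838 kb on 129 and 862 kb on Cas, and in that of H2-T3 the distances reached 2666 kb on 129 and 2750.5 kb on Cas, from 17 and 12 interactions. Distances were longer on 129 in 9 and longer on Cas in 15 of the 24 H2 windows compared, against 48.7% and 49.4% of all windows.

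At least 2-fold longer on Cas were 3 class I windows, against 8.73% of all windows, and 1 was at least 2-fold longer on 129, against 8.37%. The window with the end of H2-K1, which holds the starts of B3galt4, Rps18 and Vps52 and not that of H2-K1, reached 66 kb on 129 but 341.5 kb on Cas, at the 1.55th percentile of the distance ratio, from 2869 interactions on 129 and 2418 on Cas. The window with the end of H2-M11 had 44 kb on 129 and 230 kb on Cas, and that of H2-Q1 and H2-Q2 had 189.5 kb on 129 and 665 kb on Cas. In the other direction, the window of H2-M1 had 632 kb on 129 and 234.5 kb on Cas. The window with the start of H2-K1 differed little, with 97 kb on 129 and 113.5 kb on Cas. With 1 pooled distance per allele, none of these differences has an error, and no test was made.

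**Figure D3:**
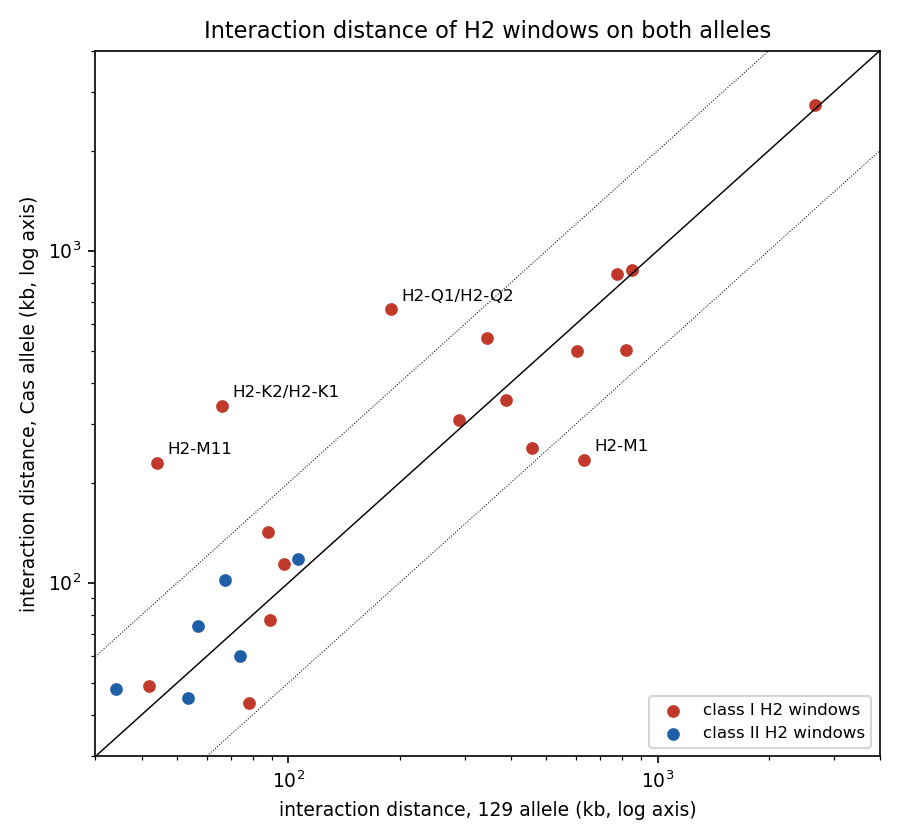
Each point is an H2 window with at least 10 interactions per allele, with its interaction distance on 129 (x axis, kb, log axis) and on Cas (y axis, kb, log axis), coloured by class. Class II windows lie at short distances near the diagonal, and the windows of H2-K2 and H2-K1, of H2-M11 and of H2-Q1 and H2-Q2 lie furthest above it.

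Along the chromosome, runs of neighbouring windows on one side of 0 crossed the borders of the gene groups. From position 34100001, 9 consecutive windows of the table lay above 0, among them 5 of the 6 class II windows, with a median ratio of 0.30. Of all windows, 8.22% lay in runs towards 129 of this length or longer. A run of 6 windows above 0 without an H2 window began at position 34650001, with a median ratio of 0.46, and runs towards 129 at least that long hold 15.4% of all windows. H2-D1 lay in a run of 5 windows below 0, a length reached by runs towards Cas that hold 18.4% of all windows. H2-Q10 began a run of 4 windows above 0, a length that covers 24.9% of all windows. The window before it, of H2-Q6 and H2-Q7, was too sparse to test. Further back, the windows of H2-Q3, H2-Q4 and H2-Q5 (0.55, from 16 interactions) and of H2-Q1 and H2-Q2 (0.11) also lay above 0. The 42 context windows had 79314 interactions on 129 and 56548 on Cas, which put 58.4% (58.1% to 58.6%) on 129, and a median ratio of 0.05. None of them was called in the beta-binomial test, against 0.944% of all windows, and 1 had an unadjusted p under 0.05, against 5.51%. The share for the whole of chromosome 17 was 58.4%.

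**Figure D4:**
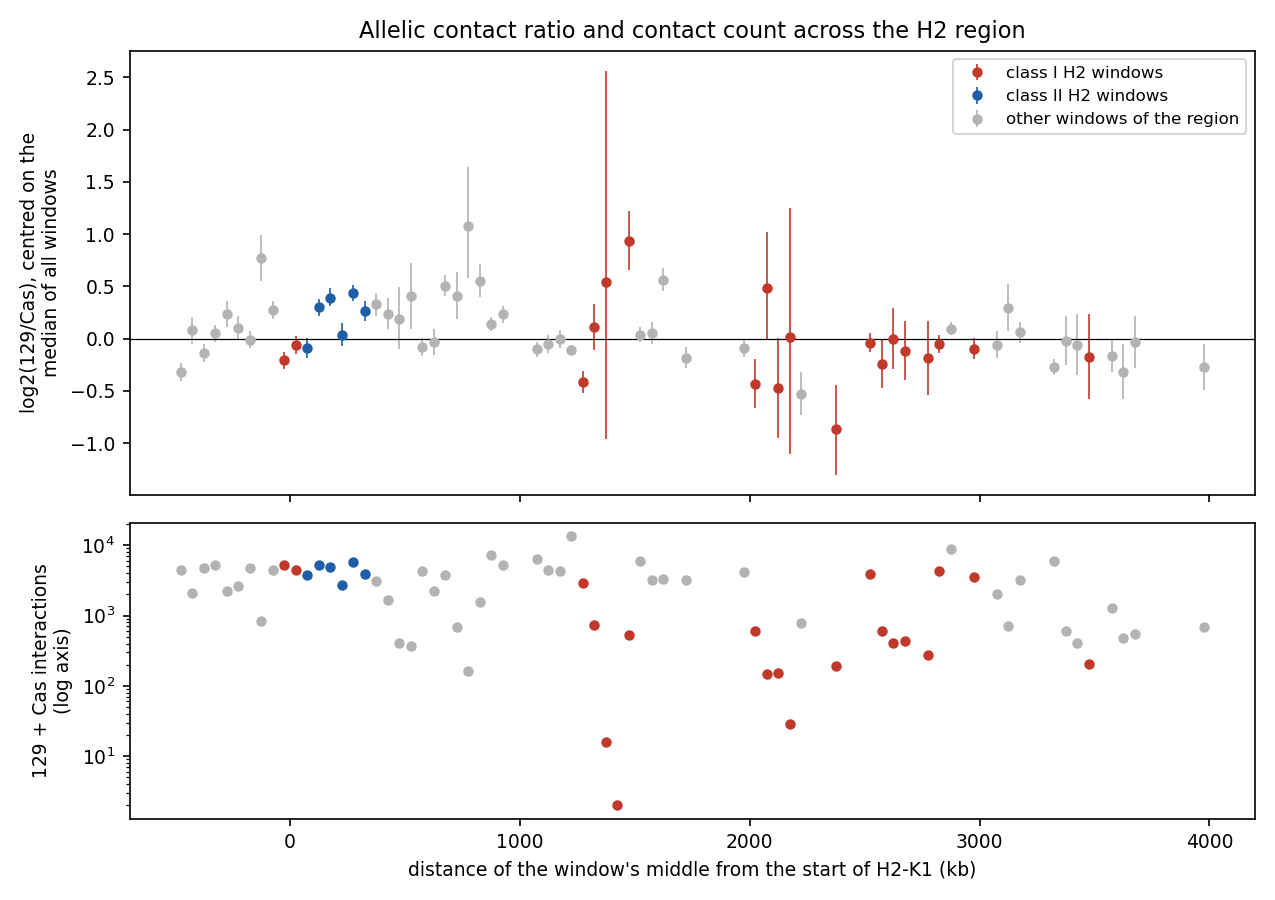
The upper panel gives the centred log2 ratio of 129 over Cas per 50 kb window against distance from the start of H2-K1 (kb), with bars for the 95% counting interval, and the lower panel the summed interactions on a log axis. Class II windows sit together above 0 apart from that of H2-Oa, and class I windows fall on both sides with wide bars at low counts.

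Genes that serve the H2 molecules were read at the window holding their start. None of 26 antigen-processing genes in 23 windows was called in the beta-binomial test, against 1.08% of all protein-coding genes. All 5 such genes inside the MHC lay above 0, in 3 windows: Tap1, Psmb8 and Psmb9 in the H2-DMb1 window, Tap2 in the H2-Ob window, and Tapbp, the tapasin gene, with 2740 interactions on 129 and 1655 on Cas. Of the class I pathway genes outside the MHC, all 12 with a window lay below 0, in 11 windows, with ratios of -0.33 to -0.01, against 57.6% of all protein-coding genes. Among them B2m, the light chain of class I molecules, had 1910 interactions on 129 and 1754 on Cas, which put 52.1% (50.5% to 53.8%) on 129. The exact binomial test called 7 of these 12 towards Cas, against 35.9% of all protein-coding genes. The list was chosen with earlier results of these data known, so these shares are no test of the pathway. Calr, Psmb10 and Irf2 lie on chromosome 8, and Psme1 and Psme2 share a window on chromosome 14. A comparison with other genes of the same chromosomes was not made. Of 9 class II pathway genes elsewhere, 3 lay above and 6 below 0, and Rfx5, a subunit of the X box factor, had 3631 interactions on 129 and 2966 on Cas. Between the H2 genes lie other MHC genes, and none of those with a start window was called in the beta-binomial test. The 32 class III genes in 11 windows had a median ratio of -0.03, and the 31 framework genes in 12 windows one of 0.04. Both medians are over genes, so a window counts once for each listed gene that starts in it. Over windows, the class III stretch had a median of 0.07, with 6 of 12 windows above and 6 below 0. The framework gene Pou5f1, a core pluripotency factor, had 3534 interactions on 129 and 2512 on Cas. The genes Nlrc5 and Ciita, transactivators of class I and class II genes, had no start window in the table. With the windows of the gene body summed, neither was called in the beta-binomial test.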

How the data were processed

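Promoter Capture Hi-C was measured in 2 samples, with 2% formaldehyde, HindIII digestion and paired reads of 100 bp, per the labels' protocols. Bowtie2 and mm10 are named in the submitters' processing notes. Allele assignment, filters and pooling are steps not given in the sources used here. Values deposited by the authors are raw interaction counts per 50 kb window and allele, and interaction distances, a signal without stated summary. Both samples are pooled in each column, and read depth per sample is therefore unknown.

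Windows with a summed count of at least 10 were tested with a beta-binomial model (overdispersion 0.0165, fitted over all windows; scipy 1.17.1, numpy 2.4.6, pandas 2.3.3, Python 3.11.15), with Benjamini-Hochberg adjustment. The test was run on data simulated from the same beta-binomial model, which cannot show how well that model fits these data. Genes came from RefSeq, and promoters were aligned with Biopython 1.88. Named windows were the 5 highest and 5 lowest ratios per class, the 3 largest distance ratios per direction and 12 genes set by name; further windows are named where the text says so or to account for every member. Members and lists were chosen with earlier results of these data known. Alternatives changed the test, overdispersion, central share, count minimum, threshold, pseudocount and membership.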

Additional observations from a re-analysis of the deposited data

How the results depend on the processing

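No paired analysis was possible because each column pools both samples and carries no replicate number, and for the same reason no replicate could be left out. Under the exact binomial test in place of the beta-binomial test, 9 H2 windows were called (5 class I and 4 class II). The same test called 22494 of all windows, or 51.4%. It called 19 of 26 antigen-processing genes, 16 of 32 MHC class III genes and 15 of 31 MHC framework genes. Of all protein-coding genes with a start window, it called 63%. Genes that share a window were each counted. Each of these gene lists had 0 calls in the beta-binomial test. At an adjusted p under 0.01 the beta-binomial test called 248 of all windows in place of 413. The counts of called H2, class I and class II windows stayed at 0 under overdispersion by depth, the chromosome 17 share, a count minimum of 50, the stricter threshold, and membership by gene start or by protein-coding genes. The median ratio ran from -0.12 (centred on chromosome 17) to -0.04 for the H2 windows, against -0.05 as reported, from -0.16 to -0.08 for class I and from 0.22 to 0.29 for class II over the alternatives. The context median was -0.02 when centred on chromosome 17, against 0.05 when centred on the autosomes. Of 20 named H2 windows, 9 passed the threshold under the exact binomial test. The share needed for a call hardly changed with depth between the median class I and class II counts.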
